A study of Mus musculus with 4 samples.

Results

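The complement components and receptors described here were 9 genes, C1qa, C1qb, C1qc, C3, C4b, Cfb, Cfp, C3ar1 and C5ar1, chosen by name from the 25239 gene symbols counted in each library. They were followed in RNA sequencing of CD4+ T cells purified from tumor-bearing lungs of C57BL/6 mice. Of the 4 libraries, 2 carry the label WT and 2 the label CD4/ALK4-KO. The CD4/ALK4-KO mice carried loxP-flanked alleles of Acvr1b (fl/fl), which encodes the activin-A receptor ALK4, and 1 copy of a tamoxifen-activated Cre recombinase expressed under the Cd4 promoter (CD4CreERT2+/-). They received 5 daily doses of tamoxifen at 75 mg/kg, and the WT mice were littermates for which the sources used here do not state tamoxifen treatment for these RNA samples. The mice were males of 8 to 10 weeks, all were given 500000 LLC-OVA cells (Lewis lung carcinoma cells that carry ovalbumin) intravenously, and lungs were taken on days 18 to 22 per the labels and on days 16 to 20 per the methods of the study. CD4+ cells were enriched from a Percoll gradient fraction of lung leukocytes with commercial kits. It is not stated whether a library came from 1 mouse or from a pool.

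Complement is a cascade of plasma and cell surface proteins that tags targets for uptake, recruits leukocytes and lyses membranes. The classical pathway starts when C1q binds to a target and C4 and C2 are cleaved, the alternative pathway amplifies through factor B, factor D and properdin, and both cleave C3. The liver makes most plasma complement, whereas tissue macrophages make C1q and properdin is made by myeloid and lymphoid leukocytes; the fragments C3a and C5a act on receptors of myeloid cells.

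Upstream sequences are shown for C1qb, 1 of the 3 C1q genes that varied together, and for C3, the member with the most counts. RefSeq windows (GRCm38.p6) were held for 6 of the 9 members, C1qb, C1qc, C3, C3ar1, C5ar1 and Cfp, and the 250 bases before the RefSeq start were searched on both strands for 3 motif cores. These were GAGGAA, the core bound by PU.1 and other ETS factors, AANNGAAA, a core bound by interferon regulatory factors, and GGGNNNTTC, a kappaB-like core. The capitals mark GAGGAA in the C1qb window at chr4:136886201-136886450 and the AANNGAAA match in the C3 window at chr17:57228137-57228386, both given 5′ to 3′ on the minus strand, on which these genes lie.
C1qb: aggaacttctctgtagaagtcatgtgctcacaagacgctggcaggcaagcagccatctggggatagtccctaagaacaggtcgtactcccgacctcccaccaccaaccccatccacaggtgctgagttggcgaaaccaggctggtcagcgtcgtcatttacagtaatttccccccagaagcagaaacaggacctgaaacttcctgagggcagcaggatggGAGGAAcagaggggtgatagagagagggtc
C3: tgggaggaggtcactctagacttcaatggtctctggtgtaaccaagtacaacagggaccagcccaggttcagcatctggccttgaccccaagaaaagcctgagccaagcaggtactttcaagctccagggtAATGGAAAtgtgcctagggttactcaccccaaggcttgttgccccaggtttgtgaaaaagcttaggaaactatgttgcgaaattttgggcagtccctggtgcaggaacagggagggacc
GAGGAA began 30 bases before the start of C1qb and, on the opposite strand, 193 bases before that of C1qc, so 2 of 6 members held it against 23.3% of 32851 upstream windows in the table. AANNGAAA was present in 3 of 6 members, C3, C1qc and C3ar1, and in 21.3% of all windows, and GGGNNNTTC in 2 of 6, C1qc and C3ar1, and in 11.8% of all windows. None of the 3 cores occurred in the windows of C5ar1 and Cfp. In the GENCODE M21 annotation the C1qc and C5ar1 genes reach chr4:136893065 and chr7:16259540. Part of their windows (chr4:136892915-136893164 and chr7:16259339-16259588) therefore lies inside these genes, with the AANNGAAA and GGGNNNTTC matches of C1qc. These matches describe letters only.

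The deposited counts summed to 13869889 and 13943237 in the WT libraries and to 11959487 and 11823908 in the CD4/ALK4-KO libraries. The targeted gene did not separate the labels. Acvr1b had 426 and 342 counts in the WT libraries and 322 and 445 in the CD4/ALK4-KO libraries, with a log2 fold change of 0.16 ± 0.24 (SE, n = 2 per genotype). Whether the counted exons include the deleted one is not given. Reads from cells without the Cd4-driven Cre would also not show a deletion, and their share of the Acvr1b counts was not tested. Directions below therefore refer to the libraries as labelled. The T cell markers did separate them. All 12 were called higher in CD4/ALK4-KO, and their summed level was 496 and 456 CPM (counts relative to the library total) in WT and 2633 and 2514 CPM in CD4/ALK4-KO. Markers of other cells were abundant in every library, since 16 macrophage markers summed to 8332 to 9356 CPM and 8 fibroblast markers to 5389 to 8377 CPM, both above the T cell sum. In bulk RNA of this kind, fewer cells of a type and less RNA per cell cannot be told apart.

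None of the 9 members differed between genotypes at an adjusted p under 0.05 (edgeR's quasi-likelihood test with Benjamini-Hochberg adjustment over 13919 genes), whereas 32.8% of all genes tested did, 17.4% higher and 15.4% lower in CD4/ALK4-KO. C1qc alone had an unadjusted p under 0.05. DESeq2's Wald test and edgeR's likelihood ratio test likewise called 0 members, each with 1 member at an unadjusted p under 0.05. They called 16.4% and 18.4% of all genes higher and 14.4% and 16.3% lower. Over the members, log2 fold changes had a median of -0.26 against -0.0082 for all genes tested, with 6 members below 0 and 3 above. The 2 WT and 2 CD4/ALK4-KO values did not overlap for 3 of the 9 members, Cfb, C3ar1 and C5ar1, a pattern that 66.7% of all genes tested had. All 9 passed the filter on low counts, and together they held 0.499% and 0.393% of all counts in WT and 0.404% and 0.480% in CD4/ALK4-KO.

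**Figure D1:**
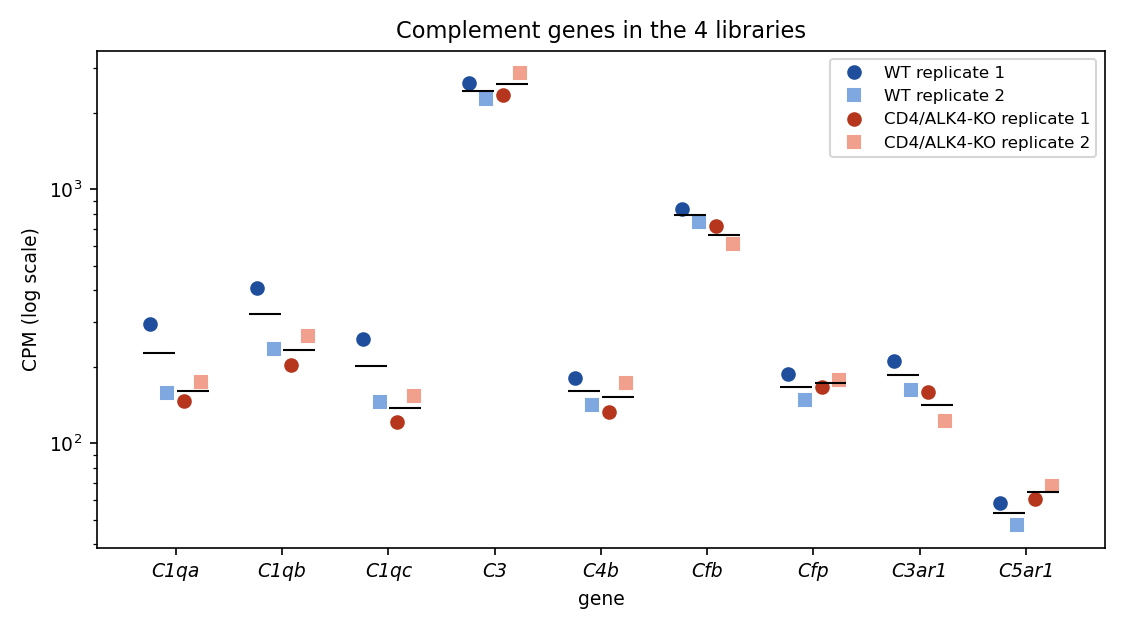
Level of the 9 complement genes (x axis) in CPM on a log scale (y axis), 1 point per library, with a bar at the mean of each genotype. WT replicate 1 stands above the other 3 libraries for C1qa, C1qb and C1qc (294, 408 and 258 CPM), C3 lies between 2272 and 2857 CPM, and the genotypes are separate for Cfb, C3ar1 and C5ar1.

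The C1q subunits, whose A, B and C chains assemble into the recognition molecule of the classical pathway, are encoded by neighbouring genes on the minus strand of chromosome 4 (GRCm38). C1qa (chr4:136895917-136898803) had 4031 and 2127 counts in WT and 1750 and 2158 counts in CD4/ALK4-KO. WT replicate 1 stood at 294 CPM and the other 3 libraries lay close together, between 147 and 175 CPM, so the genotypes overlapped. The mean level of C1qa was 226 ± 96.8 CPM (SD, n = 2) in WT and 161 ± 19.6 CPM in CD4/ALK4-KO, and the log2 fold change was -0.49 ± 0.25 (SE, 95% interval -1.02 to 0.040, adjusted p = 0.15). C1qb (chr4:136880129-136886187) had 5596 and 3171 counts in WT and 2421 and 3249 counts in CD4/ALK4-KO. It followed the same order of libraries as C1qa, with 408 CPM in WT replicate 1 and 203 to 263 CPM in the other 3. Its log2 fold change was -0.46 ± 0.25 (95% interval -0.98 to 0.056, adjusted p = 0.17). C1qc (chr4:136889804-136893065) had 3530 and 1970 counts in WT and 1438 and 1892 counts in CD4/ALK4-KO. WT replicate 1 again stood apart, and WT replicate 2, at 146 CPM, lay between the CD4/ALK4-KO libraries at 121 and 153 CPM. The log2 fold change of C1qc was -0.56 ± 0.25 (95% interval -1.07 to -0.042, adjusted p = 0.090).

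The subunits kept nearly fixed proportions while their sum varied. C1qa made up 29.3% to 31.2% of the C1q counts of a library, C1qb 42.5% to 44.5% and C1qc 25.6% to 27.1%, although the summed level of the 3 genes was 960 and 537 CPM in WT and 471 and 591 CPM in CD4/ALK4-KO. The C1qc share was 26.8% and 27.1% in WT and 25.6% and 25.9% in CD4/ALK4-KO, without overlap, whereas the C1qa and C1qb shares overlapped. For comparison, the CPM values of 66.7% of all genes tested did not overlap. Fitted as 1 feature, the summed C1q counts differed by -0.50 on the log2 scale (adjusted p = 0.13). The higher C1q means of WT rested on WT replicate 1: without it the log2 fold changes were 0.026 for C1qa, -0.014 for C1qb and -0.095 for C1qc.

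C3, the component on which all activation pathways converge, was the member with the most counts. C3 (chr17:57203970-57228136, minus strand) had 35817 and 30739 counts in WT and 27933 and 35276 counts in CD4/ALK4-KO. The order of libraries mixed the genotypes, with CD4/ALK4-KO replicate 2 highest and WT replicate 2 lowest in CPM. The mean level was 2443 ± 241 CPM (SD, n = 2) in WT and 2602 ± 361 CPM in CD4/ALK4-KO, and the log2 fold change of 0.091 ± 0.19 (SE, adjusted p = 0.76) had a 95% interval of -0.31 to 0.49, that is 0.806 to 1.41 fold. C3 ranked between 9 and 22 among all genes by count in the 4 libraries. Its share of the members' summed counts was 51.8% and 56.1% in WT and 57.9% and 62.2% in CD4/ALK4-KO, without overlap. As C3 itself overlapped between genotypes in CPM, this separation also depends on the other members. In CPM, 66.7% of all genes tested did not overlap.

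C4b, which encodes the C4 cleaved in the classical and lectin pathways, lies on chromosome 17 (chr17:34728380-34743882, minus strand). It had 2468 and 1920 counts in WT and 1581 and 2123 counts in CD4/ALK4-KO. Replicates of the same genotype differed by more than the genotype means, which were 161 ± 27.0 CPM (SD, n = 2) in WT and 152 ± 27.7 CPM in CD4/ALK4-KO. The log2 fold change was -0.079 ± 0.22 (SE, 95% interval -0.54 to 0.38, adjusted p = 0.82). The paralog C4a had 10 and 68 counts in WT and 24 and 38 counts in CD4/ALK4-KO, at most 3.42% of the counts of both genes. Of all 75-base windows of the C4b transcript, 23.5% also occur in C4a, so the split between them is uncertain, and the counts of C4b itself can leave out reads from these windows.

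In the alternative pathway, factor B supplies the protease of the C3 convertase and properdin stabilises that convertase. Cfb (chr17:34856374-34862518, minus strand), for factor B, had 11485 and 10059 counts in WT and 8543 and 7503 counts in CD4/ALK4-KO. Both CD4/ALK4-KO libraries were below both WT libraries, by a margin of 718 against 744 CPM at the nearest pair. The mean level was 791 ± 66.8 CPM (SD, n = 2) in WT and 663 ± 77.8 CPM in CD4/ALK4-KO, with a log2 fold change of -0.26 ± 0.21 (SE, 95% interval -0.69 to 0.18, adjusted p = 0.38). In the GENCODE M21 annotation 79.5% of the Cfb exon bases also belong to a readthrough model on the same strand, Gm20547, which was not analysed here, so Cfb counts depend on how such bases were counted. Cfp (chrX:20925454-20931555, minus strand), for properdin, had 2559 and 1994 counts in WT and 1989 and 2189 counts in CD4/ALK4-KO. Both CD4/ALK4-KO values lay between the WT values in CPM, at 167 and 177 against 147 and 187. The log2 fold change of Cfp was 0.044 ± 0.22 (95% interval -0.40 to 0.49, adjusted p = 0.90).

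The receptors for the anaphylatoxins C3a and C5a had fitted fold changes of opposite sign, and neither passed the test. C3ar1 (chr6:122847138-122856161, minus strand), for the C3a receptor, had 2879 and 2194 counts in WT and 1895 and 1516 counts in CD4/ALK4-KO. The genotypes were separate but close at their nearest pair, 162 CPM in WT replicate 2 and 159 CPM in CD4/ALK4-KO replicate 1. Its log2 fold change was -0.40 ± 0.22 (SE, 95% interval -0.86 to 0.062, adjusted p = 0.18). C5ar1 (chr7:16246743-16259540, minus strand), for the C5a receptor of neutrophils and macrophages, had 799 and 643 counts in WT and 719 and 838 counts in CD4/ALK4-KO. In CPM both CD4/ALK4-KO libraries, at 60.4 and 67.9, were above both WT libraries, at 58.3 and 47.5. The log2 fold change of C5ar1 was 0.28 ± 0.22 (95% interval -0.18 to 0.73, adjusted p = 0.35). Within a library, C3ar1 had 3.60 and 3.41 counts per C5ar1 count in WT and 2.64 and 1.81 in CD4/ALK4-KO. This ratio does not depend on scaling between libraries. Its separation of the genotypes follows from C3ar1 being lower and C5ar1 higher in both CD4/ALK4-KO libraries, and adds nothing to those values.

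**Figure D2:**
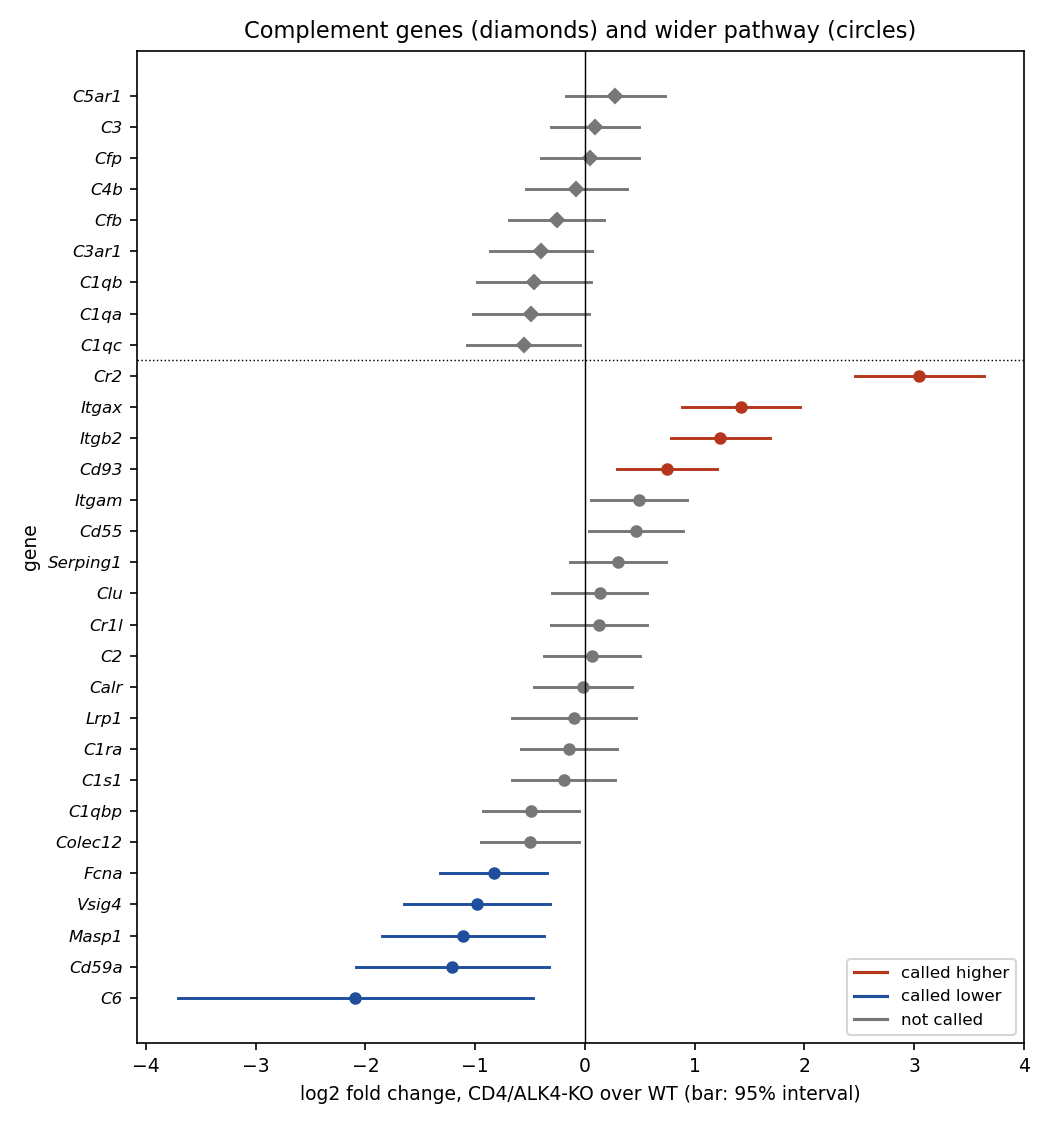
Log2 fold change of CD4/ALK4-KO over WT (x axis) with its 95% interval for the 9 complement genes (diamonds) and for 21 genes of the wider pathway (circles) on the y axis, coloured by edgeR's call at an adjusted p under 0.05. The 9 members lie between -0.56 (C1qc) and 0.28 (C5ar1) and none is called, while Cr2 stands at 3.05 and C6 at -2.09.

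Levels of different genes were compared as CPM per kilobase of summed exon length, averaged over the 4 libraries. C3 led with 490 CPM per kb and exceeded every other member in 4 of 4 libraries. Cfb and C1qb followed at 257 and 255 CPM per kb and could not be ordered, Cfb being higher in 2 of 4 libraries. The places of Cfb and C4b assume that reads from all their exon bases were counted. If reads from the 79.5% of Cfb bases shared with Gm20547 were dropped, its level per kb is understated and its order against C3 is open. C4b, with 23.5% of its windows shared with C4a, has the same limit. C1qa came next at 186 CPM per kb, below C1qb in 4 of 4 libraries although the ranges overlapped, and its range did not overlap that of Cfp (97.7 CPM per kb). The ranges of Cfp and C1qc (87.7 CPM per kb) overlapped. The order of these neighbours turned with the length used: with the longest coding transcript, C1qc stood at 141 and Cfp at 104 CPM per kb. C3ar1, C4b and C5ar1 were lowest, at 38.0, 27.5 and 22.8 CPM per kb, with overlapping ranges between neighbours.

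The members were set beside the cell types that could supply them. Hepatocyte markers were nearly absent, with 4, 0, 1 and 0 counts over 4 genes in WT replicates 1 and 2 and CD4/ALK4-KO replicates 1 and 2. C3 had 47.2 and 47.4 counts per Cd4 count in WT and 7.64 and 8.75 in CD4/ALK4-KO, while the C1q subunits had 4.96 and 2.96 counts per count of the Cd3 genes and Cd247 in WT and 0.521 and 0.735 in CD4/ALK4-KO. In these ratios the denominators changed most, since the summed T cell markers were 5.41 times as high in CD4/ALK4-KO and the members' sum 0.951 times. The macrophage markers changed little as a list: 1 of 16 was called higher (Csf1r, 0.70 on the log2 scale), 1 lower (Cd163, -1.02), and the median log2 fold change was -0.13. Lyz2, Ctsd and Apoe, the most abundant of them, had log2 fold changes of -0.15, 0.041 and -0.41, none called, and Lyz2 alone held 48.3% to 60.8% of the list's counts. Alveolar macrophage markers summed to 772 and 930 CPM in WT and 567 and 465 in CD4/ALK4-KO (1 of 8 called higher, 2 lower). Alveolar and airway epithelial markers summed to 916 and 905 against 591 and 447 CPM (2 of 10 higher, 5 lower). Dendritic cell markers went the other way, at 107 and 115 against 270 and 235 CPM (4 of 8 higher, 1 lower). Of all genes tested, 17.4% were called higher and 15.4% lower.

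Per 1000 macrophage marker counts, C1qb had 46.1 and 25.1 counts in WT and 23.9 and 31.6 in CD4/ALK4-KO, so WT replicate 1 also stood apart on this scale. C5ar1 had 6.58 and 5.08 in WT and 7.09 and 8.15 in CD4/ALK4-KO and did not overlap between genotypes. The other 8 members overlapped on this scale, on which 66.0% of all genes tested did not. With Lyz2 left out of the list, 6 of 9 members did not overlap, beside 60.6% of all genes tested. C1qa, C1qc and C3ar1 were then lower in both CD4/ALK4-KO libraries, and C3, Cfp and C5ar1 higher. For C1qa the nearest pair was 42.9 in WT replicate 2 and 42.6 in CD4/ALK4-KO replicate 2. The fibroblast markers were lower in CD4/ALK4-KO for 4 of 8 genes and higher for none, with summed levels of 7975 and 8377 CPM in WT and 5826 and 5389 CPM in CD4/ALK4-KO. Col3a1 and Dcn were among the lower ones (-0.93 and -0.69 on the log2 scale, adjusted p = 0.00079 and 0.018), whereas Fn1 was not called (0.086). Per 1000 fibroblast marker counts, C3 had 328 and 271 counts in WT and 403 and 530 in CD4/ALK4-KO, and 5 of the 9 members (C3, C4b, Cfb, Cfp and C5ar1) were higher in both CD4/ALK4-KO libraries on this scale, as were 61.0% of all genes tested. The part of any cell type in the members' levels was not tested.

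**Figure D3:**
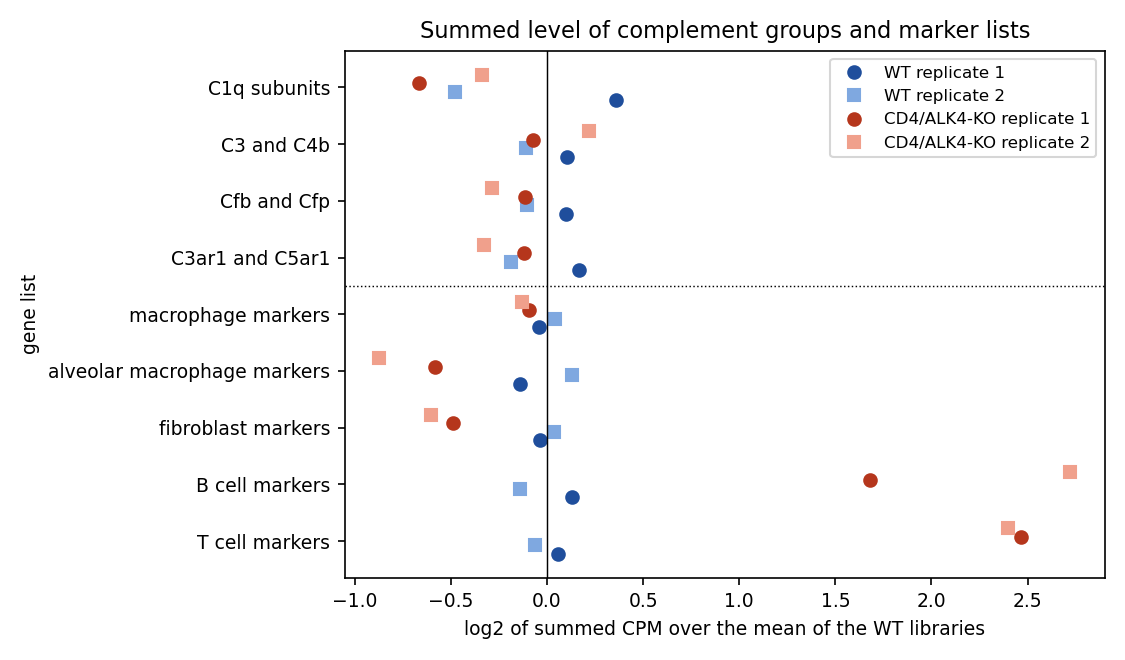
Log2 of the summed CPM of each gene list over its mean in the WT libraries (x axis), for the 4 groups of complement genes (above the dotted line) and 5 marker lists (below it), 1 point per library. T and B cell markers lie far to the right in both CD4/ALK4-KO libraries (2633 and 2514 CPM, and 213 and 439 CPM), fibroblast markers to the left, and the complement groups stay within 1 log2 unit of the WT mean.

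The genes whose pattern over the 4 libraries was most like that of C1qa were sought, by the root mean square difference of centred log2 CPM, among 10460 tested genes whose mean count was 100 or more. Apoe, the lipid-binding apolipoprotein that macrophages secrete, was nearest at 0.053, with 14087 and 7195 counts in WT and 6550 and 7668 counts in CD4/ALK4-KO. C1qb and C1qc came next at 0.056 and 0.061. Gpsm1, Sftpb and Mad2l2 were at 0.088 to 0.10, and Sftpb encodes a surfactant protein of the lung epithelium. The pattern they share is mainly the high level in WT replicate 1. For C3 the nearest genes were Jund, Ykt6, Afap1l2, Ddx49 and Larp1b at 0.019 to 0.024, and Jund, a subunit of the AP-1 transcription factor, had 2844 and 2420 counts in WT and 2215 and 2711 counts in CD4/ALK4-KO. Cfp, C4b and C5ar1 were at 0.087, 0.10 and 0.11 from C3. With 4 libraries, likeness of this kind is a description.

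Among 51 other genes of the complement system, 33 passed the filter on low counts and 5 were at 0 in all libraries, namely Masp2, Mbl1, Mbl2, C8b and C4bp. Of the 33, 4 were called higher and 5 lower in CD4/ALK4-KO, 24 were not called, and the median log2 fold change was -0.11. These 9 calls of 33 stand beside the 32.8% called among all genes. All 4 higher calls were receptors. Cr2, the receptor for C3d on B cells and follicular dendritic cells, had 79 and 72 counts in WT and 449 and 669 counts in CD4/ALK4-KO. It was several times higher in both CD4/ALK4-KO libraries, with a log2 fold change of 3.05 ± 0.28 (SE, adjusted p = 6.4e-08). The B cell markers were higher with it, 8 of 8 being called, with summed levels of 72.6 and 60.3 CPM in WT and 213 and 439 CPM in CD4/ALK4-KO, and their part in the Cr2 result was not tested. Itgax and Itgb2 encode the chains of complement receptor 4, and Itgb2 also pairs with Itgam in complement receptor 3. Itgax had 302 and 502 counts in WT and 766 and 1165 counts in CD4/ALK4-KO (log2 fold change 1.42 ± 0.26, adjusted p = 0.00024). Itgb2, the β chain shared by leukocyte integrins including LFA-1 of T cells, had 3520 and 3927 counts in WT and 6860 and 8784 counts in CD4/ALK4-KO (1.23 ± 0.22, adjusted p = 0.00016). Itgam was not called (0.49, adjusted p = 0.075). Cd93, once described as a C1q receptor, had 792 and 775 counts in WT and 994 and 1355 counts in CD4/ALK4-KO (0.75 ± 0.22, adjusted p = 0.011). The Cd93 call was lost without WT replicate 1 or WT replicate 2, in fits that called fewer genes in all than the main fit.

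Of the 5 lower calls, 1 was a receptor, 2 belonged to lectin pathway initiation, 1 to the terminal components and 1 to the membrane regulators. Vsig4, the complement receptor of resident macrophages that binds C3b, had 300 and 174 counts in WT and 130 and 82 counts in CD4/ALK4-KO (log2 fold change -0.99 ± 0.32, adjusted p = 0.021). Fcna, a ficolin made by macrophages, had 917 and 617 counts in WT and 344 and 423 counts in CD4/ALK4-KO (-0.83 ± 0.24, adjusted p = 0.0091). Masp1, a serine protease of the lectin pathway, had 502 and 222 counts in WT and 109 and 190 counts in CD4/ALK4-KO (-1.11 ± 0.35, adjusted p = 0.022). WT replicate 1 was the highest library for all 3 genes, as it was for C1q. WT replicate 2 was also above both CD4/ALK4-KO libraries in CPM for these genes, which it was not for C1q. Without WT replicate 1 the log2 fold changes were -0.56 for Vsig4, -0.54 for Fcna and -0.42 for Masp1. The calls were lost in that fit, but fits without a WT library called fewer genes in all than the main fit. The Vsig4 call was also lost without CD4/ALK4-KO replicate 2, at -0.68. C6, a part of the membrane attack complex, had 13 and 26 counts in WT and 2 and 6 counts in CD4/ALK4-KO (-2.09, adjusted p = 0.044), and Cd59a, which blocks that complex, had 93 and 66 against 35 and 26 counts (-1.21, adjusted p = 0.033). The C6 call was lost without WT replicate 1, WT replicate 2 or CD4/ALK4-KO replicate 1, at -2.52, -1.51 and -1.51. The Cd59a call was lost without WT replicate 1, WT replicate 2 or CD4/ALK4-KO replicate 2, at -0.96, -1.43 and -0.99.

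The proteases and regulators that surround the members were abundant and not called. C1ra and C1s1, the proteases that C1q activates, had log2 fold changes of -0.15 and -0.19. Of their 75-base windows, 42.4% and 28.0% are found in other genes. The paralog C1rb holds 40.1% of the C1ra windows, and the paralog C1s2 holds 14.7% of the C1s1 windows. C2, which supplies the protease of the classical convertase, was at 0.062. Serping1, the C1 inhibitor, and Clu, clusterin, were at 0.30 and 0.13, with 4746 to 5347 and 5945 to 6522 counts per library. Cd55 and Cr1l, membrane regulators of the C3 convertase, were at 0.47 and 0.13. The collectin Colec12, the C1q-binding protein C1qbp, calreticulin (Calr) and Lrp1 were at -0.50, -0.49, -0.017 and -0.096. Other components that act with the members were scarce, with 69 to 118 counts per library for Hc, which encodes C5, 1 to 16 for Cfd, factor D, and 25 to 42 for C5ar2.

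**Figure D4:**
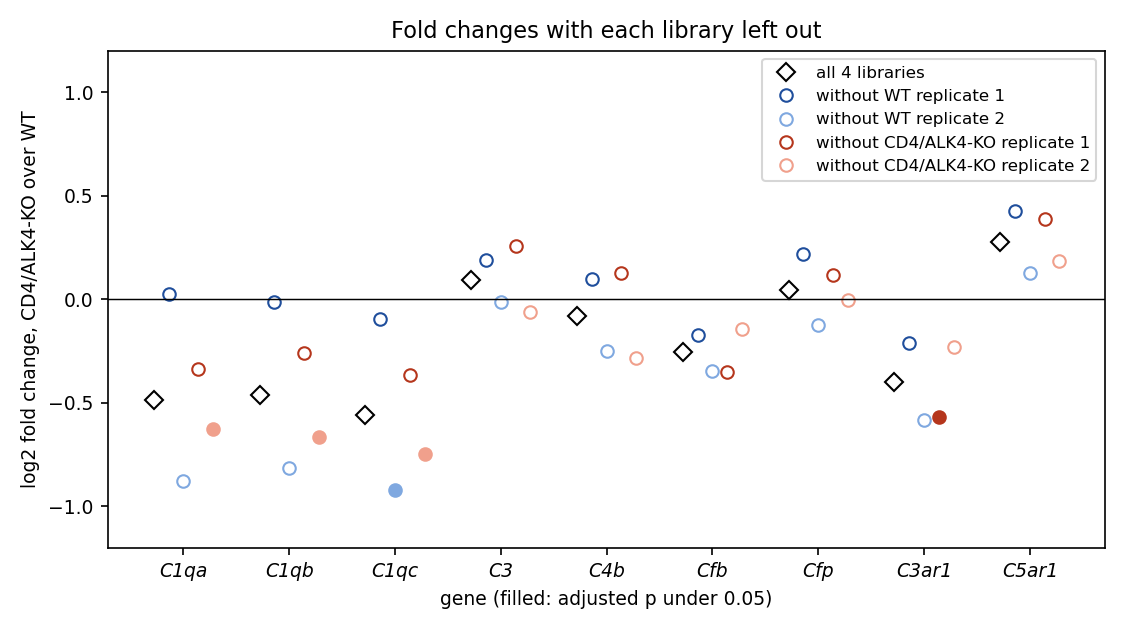
Log2 fold change of CD4/ALK4-KO over WT (y axis) of the 9 complement genes (x axis) from all 4 libraries (diamonds) and with each library left out (circles, filled where edgeR's adjusted p is under 0.05). The C1q genes lie near 0 without WT replicate 1 (0.026, -0.014 and -0.095) and are called without CD4/ALK4-KO replicate 2, and C3ar1 is called without CD4/ALK4-KO replicate 1.

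Leaving out 1 library at a time moved the C1q genes most. Without CD4/ALK4-KO replicate 2, all 3 were called lower, at -0.62, -0.67 and -0.74 for C1qa, C1qb and C1qc (adjusted p = 0.0081, 0.0033 and 0.0016), as were 18.1% of all genes in that fit. Without WT replicate 2, C1qc alone was called (-0.92, adjusted p = 0.044), with 7.27% of all genes lower, and without CD4/ALK4-KO replicate 1, C3ar1 alone (-0.57, adjusted p = 0.018), with 17.5% lower. Without WT replicate 1, 0 members were called, 0 of 9 had an unadjusted p under 0.05, and the members' median was 0.026, in a fit that called 5.24% of all genes lower. C1qa, C3, C4b and Cfp changed sign between these fits. C1qb, C1qc, Cfb and C3ar1 stayed below 0 and C5ar1 above 0 in all 4 of them.

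The directions depended on the reference. With Cd3d, Cd3e, Cd3g and Cd247, genes of the T cell receptor complex, as the reference, the median of all genes tested was -2.19, 92.0% of all genes were called lower, and so were all 9 members, from -2.72 for C1qc to -1.90 for C5ar1. Relative to that median of all genes, C1qc was lower and C5ar1 higher, as on the main scale. With the macrophage markers as the reference, the median of all genes was 0.10, and 20.7% of all genes were called higher and 11.8% lower. In that fit 0 members were called, with 0 at an unadjusted p under 0.05.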

How the data were processed

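RNA was sequenced from CD4+ T cells of tumor-bearing lungs, in 2 WT and 2 CD4/ALK4-KO libraries as labelled. The authors prepared 75-base single-end libraries with an unstranded kit, aligned reads with HISAT2 to mm10 and counted them per gene with HTSeq (htseq-count, intersection-nonempty). The annotation, strand option and versions are not given in the sources used here. The deposited values are raw counts per gene symbol. Such counting in its default mode drops reads that fit several genes, and whether it dropped reads of C4b or Cfb was not tested.

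Genes passing filterByExpr (13919 of 25239) were tested with edgeR 4.0.16 (R 4.3.3) with TMM scaling, a genotype-only design, robust glmQLFit and glmQLFTest, and Benjamini-Hochberg adjustment over all genes tested at 0.05. The script was tested on simulated counts. CPM used TMM library sizes, and summed exon lengths and coordinates came from GENCODE M21 (GRCm38). A fold change is CD4/ALK4-KO over WT, SE is the standard error of the log2 fold change, and all intervals are at 95%.

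The members, gene lists and tests were chosen with earlier results of these data known. Named genes were all 9 members, every called gene of the wider complement list and its other genes whose mean count was 100 or more, the 5 genes closest in pattern to C1qa and C3, and the 3 most abundant genes of a marker list. Csf1r, Cd163 and the low-count genes C4a, Hc, Cfd and C5ar2 were added after their values were seen. Of the genes this rule names, 2 are not reported here. Of the marker lists not described in the text, neutrophil (10 tested) had 2 genes called higher and 0 lower, NK cell (4) 4 and 0, endothelium (6) 1 and 1, and of 3 erythrocyte genes 1 was tested and not called. Alternatives were DESeq2 1.42.0, other scalings and filters, a replicate block and each library left out. Scaling to macrophage markers without Lyz2 and the crossed pairing were chosen after seeing the data. The replicates are separate libraries that differed by more than counting noise (chi-square per degree of freedom 16.0 in WT and 28.7 in CD4/ALK4-KO). As independence of the mice is not stated, p-values measure the spread between these libraries.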

Additional observations from a re-analysis of the deposited data

How the results depend on the processing

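Leaving out 1 library moved the log2 fold change of C1qa between -0.88 and 0.026, C1qb -0.82 and -0.014, C1qc -0.92 and -0.095, C3 -0.064 and 0.26, C4b -0.28 and 0.13, Cfp -0.13 and 0.22, C3ar1 -0.58 and -0.21, and, in the wider list, C1s1 -0.49 and 0.067, C2 -0.042 and 0.18, Calr -0.21 and 0.18, and Lrp1 -0.69 and 0.35. Members called lower ranged from 0 to 3, wider genes called lower from 0 to 8 and higher from 3 to 7. The same fits called 5.24% to 18.1% of all genes lower and 7.66% to 20.3% higher, and tested 34 to 36 wider genes. These counts therefore vary with how many genes a fit called in all.

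With genes of the T cell receptor complex as the reference, which were themselves called higher, the members C1qa, C1qb, C1qc, C3, C4b, Cfb, Cfp, C3ar1 and C5ar1 stood at -2.65, -2.62, -2.72, -2.08, -2.25, -2.44, -2.13, -2.59 and -1.90, with 9 members lower and a median of -2.44, beside 92.0% of all genes lower, 0.345% higher and a median of -2.19. In the wider list 1 gene was higher and 31 lower (median -2.25), and C2, Serping1, Clu, Cd55, Cr1l, Itgam, Itgax, Itgb2 and Cd93 turned to -2.13, -1.88, -2.05, -1.72, -2.06, -1.69, -0.76, -0.94 and -1.43. Scaling to macrophage markers turned C4b to 0.029, Calr to 0.095 (0.035 without Lyz2) and Lrp1 to 0.015. It left 3 wider genes lower, beside 11.8% of all genes. Upper quartile scaling turned Cfp to -0.026 and C2 to -0.0068. With no filter on low counts, C1qc (-0.56, adjusted p = 0.048) was called, so 1 member was lower, beside 11.8% of all genes. DESeq2's Wald test left 3 wider genes lower, beside 14.4% of all genes.

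The replicate numbers are shared by the genotypes, but the replicate differences of WT and CD4/ALK4-KO correlated at -0.21 over 13919 genes, so they were not treated as pairs. With the replicate block 0 members and 3 wider genes were called lower and 3 wider genes higher, beside 10.4% of all genes lower and 12.7% higher. With the crossed pairing 3 members were lower, and 6 wider genes were higher and 8 lower, in a fit that called 22.4% of all genes higher and 21.8% lower. The members kept direction and side of the threshold in the other settings. Named genes of the wider list lost the call in 20 of 292 combinations of gene and setting, gained one in 23 and were called in the opposite direction in 3. With 2 libraries per genotype, an interval of a member spans about 1 log2 unit, and differences inside these intervals are not excluded.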
